A study of Mus musculus with 6 samples.

Results

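The 48 genes described here encode the machinery of DNA replication: origin licensing, the MCM helicase and its activators, polymerases and primase, the sliding clamp and its loader, Okazaki fragment joining, nucleotide supply, and the chromatin and G1/S factors that work beside them. They are named members of these complexes, chosen by function. No measured value entered the list of names, but the list was made with earlier results of these data known. A gene was read from the Affymetrix probe sets whose platform annotation gives it as the single symbol, and the probe set with the highest mean over the 6 arrays stood for it. Of the 48 genes, 47 had such a probe set, and 46 exceeded the array median often enough (on 3 or more of the 6 arrays) to be tested, among 10807 genes tested in all. Chaf1a, the large subunit of chromatin assembly factor 1, was not analysed here. Orc1, the largest origin recognition subunit, was too dim to test, with means of 2.66 in GFP_plus and 2.78 in GFP_min on the log2 scale.

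The cells were marrow of femur and tibia, taken from female mice that carry an HdcGFP reporter on a C57BL/6 background, in which GFP follows histidine decarboxylase, the enzyme that makes histamine. Both groups were sorted as CD11b+Gr1+ myeloid cells: GFP_plus were HdcGFP+/hi and GFP_min were HdcGFP-/lo, with 3 arrays each (a, b and c). The age of the mice is not given in the sources used here. No source used here says that each array had its own mouse, so the p-values cover the spread of these 6 samples alone, and that spread may be technical. For GFP_min b the sample description reads Gr1- while its sorted-cell label reads Gr1+. All levels are the deposited log2 values, and a difference is the GFP_plus mean minus the GFP_min mean, with its standard error (SE) and an adjusted p from limma. A gene is called higher or lower where the adjusted p over all tested probe sets was under 0.05. The number of arrays limits the precision.

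Replication starts at origins that the origin recognition complex marks in G1, where Cdc6 and Cdt1 load the ring-shaped MCM helicase. At the G1/S boundary cyclin E and E2F factors switch on the program, and Cdc7 kinase, Cdc45, Mcm10 and the GINS complex turn the loaded ring into a moving helicase. Primase and polymerase alpha then start each strand, polymerases epsilon and delta extend it on the Pcna clamp, and Fen1 and Lig1 finish the lagging strand. In marrow the precursors of neutrophils and monocytes divide and the mature cells do not, which is why these transcripts are widely read as marks of the dividing precursors.

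Many replication genes carry a site for E2F, the factor that drives the G1/S program, close to their start, so the promoters of the members were read first. RefSeq promoters of the mouse build GRCm38.p6, each from 250 bases before to 50 bases after the start, were at hand for 39 of the 48 members. Gmnn, Mcm4, Gins1, Gins2, Gins4, Pole, Prim2, Rfc2 and Ccne2 had none in the table. The search used the E2F spellings TTTGGCGC, TTTCCCGC, TTTGCCGC and TTTCGCGC, which can overlap each other, on both strands. The promoters of Cdc6 and Cdt1 are shown whole because both genes were called, held a match and had a single promoter in the table. These partners in MCM loading were called in opposite directions. The promoter of Mcm6 is shown because it held 3 matches, more than any other member. Lig1 and Uhrf1, the other called members with a match, had more than a single promoter in the table. Only the bases around their match are shown, and its position counts from the start of the promoter that held it. Capitals mark the matches, and each sequence runs 5′ to 3′ on the strand of its gene.
Cdc6 chr11:98907901-98908200 (+): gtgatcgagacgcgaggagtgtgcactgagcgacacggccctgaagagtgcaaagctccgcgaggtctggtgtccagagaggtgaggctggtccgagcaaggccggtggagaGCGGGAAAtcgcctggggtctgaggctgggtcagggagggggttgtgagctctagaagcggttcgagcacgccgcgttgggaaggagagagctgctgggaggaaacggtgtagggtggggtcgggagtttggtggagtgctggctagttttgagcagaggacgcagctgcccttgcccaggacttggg
Cdt1 chr8:122567765-122568064 (+): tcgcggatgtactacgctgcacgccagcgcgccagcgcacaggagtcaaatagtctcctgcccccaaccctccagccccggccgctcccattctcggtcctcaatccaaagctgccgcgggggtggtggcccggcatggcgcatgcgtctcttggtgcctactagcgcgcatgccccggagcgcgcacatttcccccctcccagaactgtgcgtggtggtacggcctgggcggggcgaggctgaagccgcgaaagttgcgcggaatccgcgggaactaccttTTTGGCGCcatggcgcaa
Mcm6 chr1:128359656-128359955 (-): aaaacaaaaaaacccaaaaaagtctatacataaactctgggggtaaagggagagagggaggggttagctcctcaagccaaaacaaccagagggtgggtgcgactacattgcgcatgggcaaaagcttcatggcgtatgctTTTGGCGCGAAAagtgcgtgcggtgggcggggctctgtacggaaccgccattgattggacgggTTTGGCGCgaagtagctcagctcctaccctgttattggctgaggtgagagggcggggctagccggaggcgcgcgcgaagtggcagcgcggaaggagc
Lig1 chr7:13278842-13278869 (+): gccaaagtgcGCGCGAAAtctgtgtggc
Uhrf1 chr17:56304118-56304145 (+): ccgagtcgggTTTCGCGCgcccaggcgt

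A match was found in the promoters of 14 of 39 members (35.9%) and in those of 704 of 27025 genes of the whole table (2.61%). The share was 3.29% among 17492 protein-coding genes of the table, and 4.74% among 8823 genes tested on the arrays and present in the table. A gene counted where any of its promoters held a match, so genes with more promoters had more chances of a match. Counted from the start, with bases before it negative, the matches of the members lay between −185 and 47. In Cdc6 the match stood at −138 to −131 and in Cdt1 at 33 to 40. The overlapping pair in the Mcm6 promoter began at −110 and −106. A match was present in 3 of 8 members called higher, 1 of 4 called lower and 9 of 25 not called, and Orc1, which was not tested, also held one. A match is a description of letters and not a site. As a second motif, TTTGAA, the core of the CHR element known from mitosis promoters, was found in 6 of 39 members (15.4%), 14 of 20 mitosis genes (70.0%) and 5466 of all 27025 genes (20.2%), and in 14.6% of the genes tested on the arrays. TTTGAA and the E2F spellings cannot overlap each other.

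**Figure D1:**
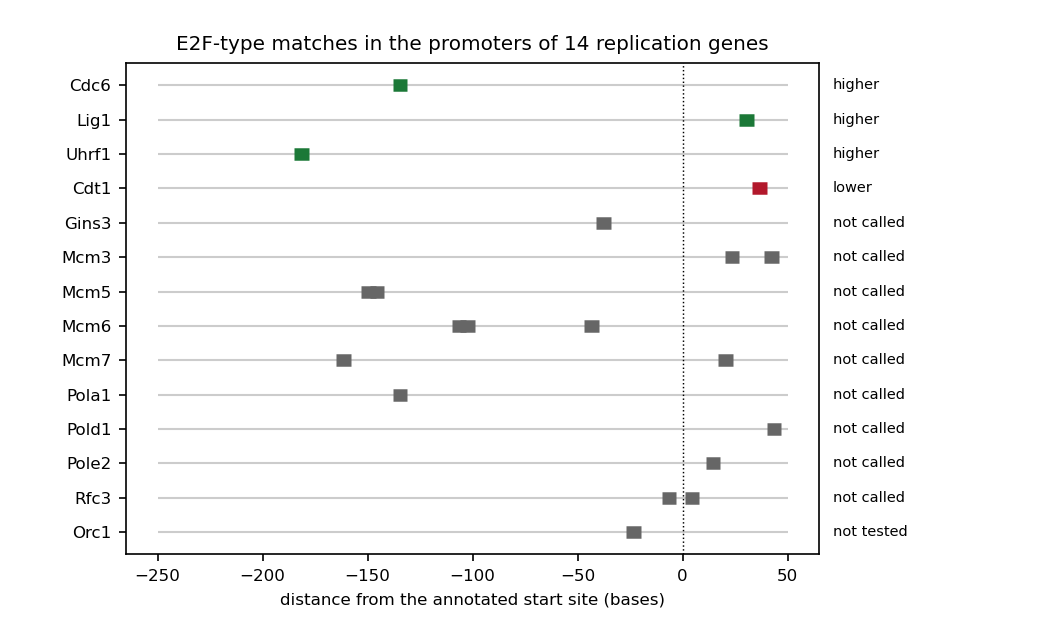
Positions of E2F-type matches in the member promoters that hold any, as bases from the transcription start (horizontal axis), 1 row per gene, with the colour giving the call of the gene. The matches of higher and of uncalled members lie on either side of the start and the single match of a lower member, Cdt1, after it, within the 250 bases before and 50 bases after it that were read.

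GFP_plus cells held 10 of the 46 tested replication genes at higher levels than GFP_min cells and 6 at lower levels, while 30 were not called. The genes that rose were Cdc6, Mcm2, Cdc45, Cdc7, Rfc2, Lig1, Rrm2, Dut, Uhrf1 and Ccne2, and those that fell were Cdt1, Gins1, Gins4, Pold2, Pcna and Rpa1. The share called higher was 21.7%, against 21.0% of all 10807 genes tested, and the share called lower was 13%, against 27.6% of all genes. These shares of all genes also stand beside the counts by role given below. The median difference of the members was 0.022, where it was 0.0024 over all genes, and the median size of a difference was 0.219, where it was 0.297 over all genes. In these bulk samples fewer cells of a type and less RNA per cell cannot be told apart.

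The changes were small. Pold2 alone was called with a difference of at least 1 log2 (2.17% of the members), a size that 10.3% of all genes tested passed in either direction. The other differences ran from −0.58 to 0.65, and 39 of the 46 were under 0.5 in size. The 3 GFP_plus arrays lay above all GFP_min arrays for 14 members (30.4%), against 27.2% of all genes, and below all of them for 7 members (15.2%), against 32.1% of all genes. The 25 others overlapped. The mean level of the 46 genes was 7.67, 7.62 and 7.60 in GFP_plus a, b and c, against 7.61, 7.64 and 7.64 in GFP_min a, b and c, so the groups overlapped in this mean. Left without GFP_min b, the array with the conflicting description, 11 members were higher and 6 lower. The share of all genes called in that fit is not given here.

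**Figure D2:**
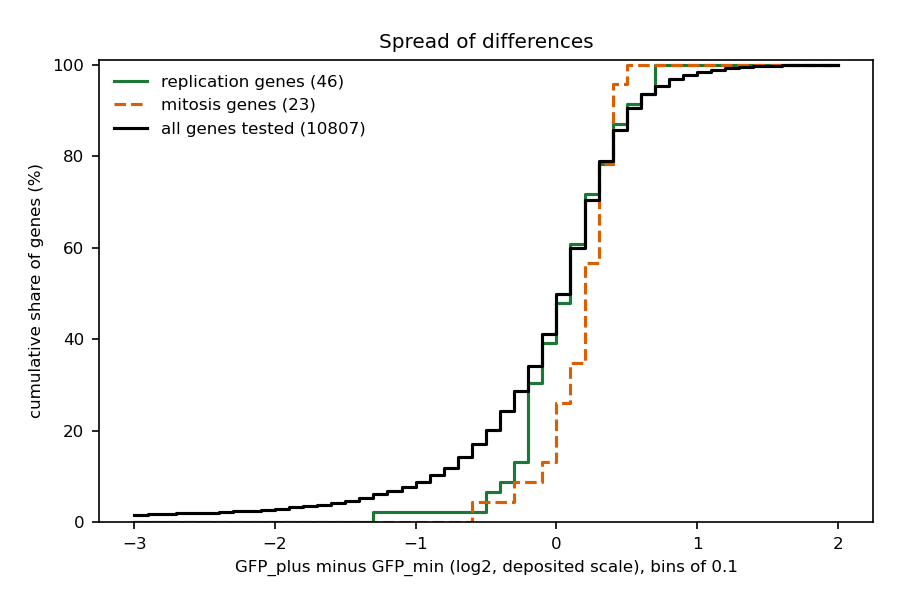
Cumulative share of genes (percent, vertical axis) against the difference of GFP_plus minus GFP_min (log2, bins of 0.1) for the 46 replication genes, 23 mitosis genes and all 10807 genes tested. The replication genes lie within a narrower range than all genes, with a median of 0.022, and Pold2 makes the lowest step at −1.35.

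**Figure D3:**
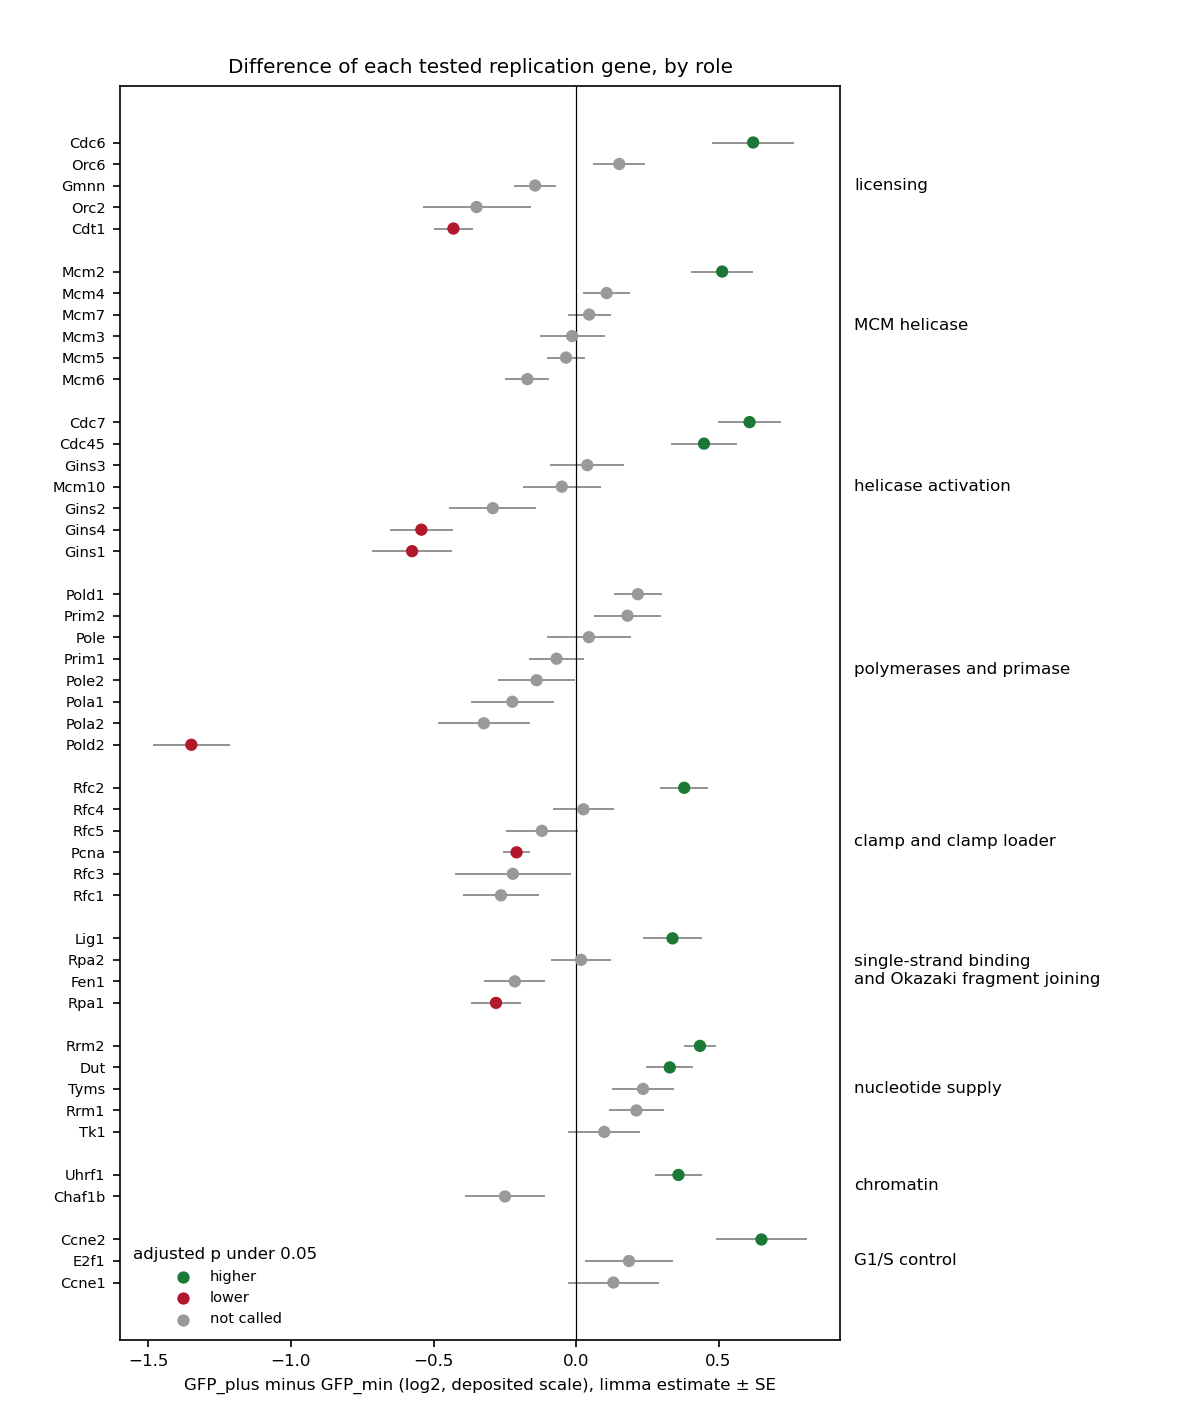
Difference (GFP_plus minus GFP_min, log2) of each of the 46 tested members with its SE, ordered by role, with the colour giving the call. Most lie within 0.5 of 0, and 10 called higher and 6 called lower are spread over the roles.

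Among the licensing genes 1 rose, 1 fell and 3 were not called, with a median difference of −0.14. Cdc6, the ATPase that joins the origin complex to load the helicase, stood at 7.59, 7.84 and 7.62 in GFP_plus, against 7.14, 6.79 and 7.26 in GFP_min. All GFP_plus arrays were above all GFP_min arrays, and Cdc6 rose by 0.62 (SE 0.14, adjusted p = 0.00571). Cdt1, its partner in loading, went the other way, with 9.88, 9.72 and 9.83 in GFP_plus, against 10.22, 10.28 and 10.23 in GFP_min. Its groups did not overlap, and Cdt1 fell by 0.43 (SE 0.07, adjusted p = 0.000704), while its second probe set fell by 1.06. With the arrays centred on ribosomal protein genes the first Cdt1 value turned to 0.10.

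Gmnn encodes geminin, the protein that holds Cdt1 inactive after licensing. Its levels were 9.54, 9.43 and 9.44 in GFP_plus and 9.58, 9.65 and 9.61 in GFP_min. GFP_plus lay below GFP_min on all arrays, yet the difference of −0.14 (SE 0.07) was not called (adjusted p = 0.135). Orc2 and Orc6 are subunits of the origin recognition complex. Orc2 differed by −0.35 (adjusted p = 0.163) with overlapping groups on its brightest probe set, while its other 2 probe sets were called lower, by as much as −0.73. Orc6 differed by 0.15 and was not called.

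Of the 6 MCM subunits, which form the ring of the replicative helicase, 1 rose and 5 were not called, and their median difference was 0.016. Mcm2 had 7.41, 7.57 and 7.45 in GFP_plus, against 6.88, 6.98 and 7.04 in GFP_min. Its groups were apart by 0.51 (SE 0.11, adjusted p = 0.00379), and its second probe set also rose. Mcm6 had 9.98, 9.91 and 9.85 in GFP_plus, against 9.97, 10.18 and 10.10 in GFP_min. The groups overlapped at GFP_min a, and the difference was −0.17 (adjusted p = 0.101). Mcm4 had 9.66, 9.51 and 9.57 in GFP_plus, against 9.37, 9.51 and 9.54 in GFP_min. The difference of 0.11 was not called (adjusted p = 0.311).

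The remaining ring subunits differed by less than their SE on their brightest probe sets. Mcm3 differed by −0.014 (SE 0.11), Mcm5 by −0.035 (SE 0.07) and Mcm7 by 0.046 (SE 0.08). Other probe sets of the same genes were less even: a second Mcm4 probe set was called higher by 0.99, a second Mcm6 probe set had 0.52 without a call, and 1 of 4 Mcm7 probe sets was called higher by 0.33. Among the other Mcm3 probe sets the differences ran from −0.29 to 0.19, and among those of Mcm5 from −0.36 to 0.10, none called. The second Mcm4 and Mcm6 probe sets, the called Mcm7 probe set and the brightest ones of Mcm3, Mcm5 and Mcm7 all carry a suffix that Affymetrix gives to probes which may also match other transcripts.

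Helicase activation held called genes in both directions, with 2 higher, 2 lower and 3 not called and a median difference of −0.05. Cdc7, the kinase that phosphorylates the loaded MCM ring, had 8.77, 8.45 and 8.46 in GFP_plus, against 7.87, 7.96 and 8.02 in GFP_min. It rose by 0.61 (SE 0.11, adjusted p = 0.00158), although its second probe set differed by 0.013 and was not called. Cdc45, which joins MCM and GINS in the active helicase, had 7.28, 7.12 and 7.32 in GFP_plus, against 6.89, 6.76 and 6.72 in GFP_min. Its rise of 0.45 (SE 0.12, adjusted p = 0.0106) was seen on both of its probe sets.

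The GINS complex, which holds the active helicase together, had 2 of its 4 subunits lower. Gins4 had 7.27, 7.21 and 7.43 in GFP_plus, against 7.74, 7.94 and 7.86 in GFP_min, and fell by 0.54 (SE 0.11, adjusted p = 0.00285). Gins1 had 6.51, 6.24 and 6.10 in GFP_plus, against 6.83, 6.77 and 6.97 in GFP_min, and fell by 0.58 (SE 0.14, adjusted p = 0.00752). Both were below GFP_min on every array, and both came to about the GFP_min level, at −0.012 and −0.045, with ribosomal centring. The second Gins1 probe set differed by −0.0038 and was not called. Gins2 differed by −0.29 (adjusted p = 0.147) and Gins3 by 0.039, and neither was called. Mcm10, which helps the helicase leave the origin, differed by −0.05 and was not called.

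Polymerases and primase had 1 member called, lower, and 7 not called, with a median difference of −0.10. Pold2, the small scaffold subunit of polymerase delta, had 5.24, 5.25 and 5.10 in GFP_plus, against 6.41, 6.70 and 6.53 in GFP_min. The groups stood more than 1 log2 apart on every array, and Pold2 was 2.55-fold lower (difference −1.35, SE 0.14, adjusted p = 3.36e-05). It was measured by a single tested probe set. Pold1, the catalytic subunit of the same enzyme, had 9.13, 9.14 and 9.17 in GFP_plus, against 9.04, 8.92 and 8.83 in GFP_min. GFP_plus was above GFP_min on all arrays, with a difference of 0.22 (SE 0.08) that was not called (adjusted p = 0.0589). Without GFP_min a, Pold1 was called higher with 0.27.

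Polymerase alpha, which extends the RNA primers, was read through Pola1, its catalytic subunit, and Pola2. Pola2 had 4.82, 4.74 and 4.39 in GFP_plus, against 4.997, 4.81 and 5.11 in GFP_min. These overlapped, and the difference was −0.32 (adjusted p = 0.129). Pola1 differed by −0.22. Polymerase epsilon, the leading-strand enzyme, differed by 0.045 for its catalytic subunit Pole and by −0.14 for Pole2. The primase subunits differed by −0.07 (Prim1) and 0.18 (Prim2). None of these 6 was called.

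The clamp and its loader had 1 gene higher, 1 lower and 4 not called, with a median difference of −0.16. Pcna, the ring that tethers polymerases to DNA, had 12.06, 11.96 and 12.09 in GFP_plus, against 12.23, 12.25 and 12.25 in GFP_min. Its groups did not overlap, and it fell by 0.21 (SE 0.05, adjusted p = 0.00573), which turned to 0.32 with ribosomal centring. Rfc2, a small subunit of the clamp loader, had 10.09, 9.94 and 10.13 in GFP_plus, against 9.61, 9.80 and 9.61 in GFP_min, and rose by 0.38 (SE 0.08, adjusted p = 0.00460). Its other 2 probe sets were not called.

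Rfc1, the large loader subunit, had 9.10, 8.71 and 9.04 in GFP_plus, against 9.09, 9.45 and 9.09 in GFP_min. GFP_plus b was low and GFP_min b high, and the difference of −0.26 was not called (adjusted p = 0.133). Rfc3, Rfc4 and Rfc5, the remaining small subunits, differed by −0.22, 0.026 and −0.12 without a call. Rfc3 had the widest spread of the members within a group, with an SD of 0.406 in GFP_min, and was called lower with −0.45 once GFP_min b was left out.

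Single-strand binding and Okazaki fragment joining also had 1 gene in each direction and 2 not called, with a median difference of −0.10. Lig1, the ligase that seals lagging-strand fragments, had 8.69, 8.62 and 8.70 in GFP_plus, against 8.15, 8.47 and 8.36 in GFP_min. It rose by 0.34 (SE 0.10, adjusted p = 0.0226) and came to −0.02 with centring on the poly-A controls. Rpa1, the large subunit of the complex that coats single-stranded DNA, had 9.82, 9.60 and 9.68 in GFP_plus, against 9.86, 10.09 and 9.99 in GFP_min. It fell by 0.28 (SE 0.09, adjusted p = 0.0245) and turned to 0.25 with ribosomal centring. The second Rpa1 probe set differed by −0.29 and was not called. The calls of Lig1 and Rpa1 both depended on single arrays. Lig1 was no longer called without GFP_plus a (0.33), GFP_plus c (0.32) or GFP_min a (0.25), nor Rpa1 without GFP_plus b (−0.23), GFP_plus c (−0.27), GFP_min b (−0.23) or GFP_min c (−0.27).

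Fen1, the nuclease that trims Okazaki flaps, had 7.92, 7.79 and 7.75 in GFP_plus, against 8.18, 7.91 and 8.02 in GFP_min. The difference was −0.21 (adjusted p = 0.132), and the groups met at GFP_plus a and GFP_min b. Its second probe set had −0.44 and was not called either. Rpa2, a smaller subunit of the same coat, differed by 0.018.

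Nucleotide supply had 2 genes higher, none lower and 3 not called. All 5 differences were above 0 on the deposited scale, with a median of 0.23, where 49.7% of all genes tested were not above 0. Rrm2, the small subunit of ribonucleotide reductase, had 11.59, 11.70 and 11.54 in GFP_plus, against 11.22, 11.17 and 11.14 in GFP_min. It rose by 0.43 (SE 0.06, adjusted p = 0.000202), and all 3 of its probe sets were called higher, by up to 0.71. Dut, which removes dUTP, had 9.45, 9.35 and 9.26 in GFP_plus, against 9.08, 8.97 and 9.02 in GFP_min, and rose by 0.33 (SE 0.08, adjusted p = 0.00907). With poly-A centring Dut came to −0.03, Rrm1 to −0.15, Tyms to −0.12 and Tk1 to −0.26, while Rrm2 kept 0.08. The second, dim Dut probe set differed by 0.11 and was not called.

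Rrm1, the large reductase subunit, had 9.61, 9.35 and 9.53 in GFP_plus, against 9.22, 9.43 and 9.20 in GFP_min. The groups overlapped in their b arrays, and the difference of 0.21 was not called (adjusted p = 0.105), but it was called with 0.29 without GFP_plus b or without GFP_min b. The second Rrm1 probe set was called higher by 0.40. Tyms, thymidylate synthase, was dim, with means of 3.44 in GFP_plus and 3.20 in GFP_min, and its difference of 0.23 was not called (adjusted p = 0.106). Tk1, the thymidine salvage kinase, differed by 0.10 without a call.

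Uhrf1, which brings the maintenance DNA methyltransferase to newly copied DNA, had 9.76, 9.90 and 9.96 in GFP_plus, against 9.61, 9.46 and 9.48 in GFP_min. It rose by 0.36 (SE 0.08, adjusted p = 0.00527), while its second probe set differed by 0.28 and was not called. Chaf1b, a subunit of the histone chaperone that follows the fork, had 2.85, 3.28 and 3.17 in GFP_plus, against 3.25, 3.52 and 3.27 in GFP_min. These levels are close to the array medians of 2.82 to 2.88, the groups overlapped, and the difference was −0.25 (adjusted p = 0.174).

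Of the G1/S genes 1 rose and 2 were not called, and all 3 differences were above 0 on the deposited scale. With poly-A centring E2f1 came to −0.17 and Ccne1 to −0.23, while Ccne2 kept 0.29 without a call. Ccne2, cyclin E2, which activates Cdk2 at the start of S phase, had 7.13, 7.38 and 6.85 in GFP_plus, against 6.51, 6.27 and 6.64 in GFP_min. Its rise of 0.65 (SE 0.16, adjusted p = 0.00835) was the largest among the members. Ccne1, cyclin E1, had 5.31, 5.15 and 5.23 in GFP_plus, against 4.83, 5.11 and 5.35 in GFP_min, which overlapped (difference 0.13, adjusted p = 0.538). E2f1, the activating E2F factor, had 4.90, 4.57 and 4.47 in GFP_plus, against 4.54, 4.33 and 4.51 in GFP_min, which also overlapped (difference 0.19, adjusted p = 0.353).

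**Figure D4:**
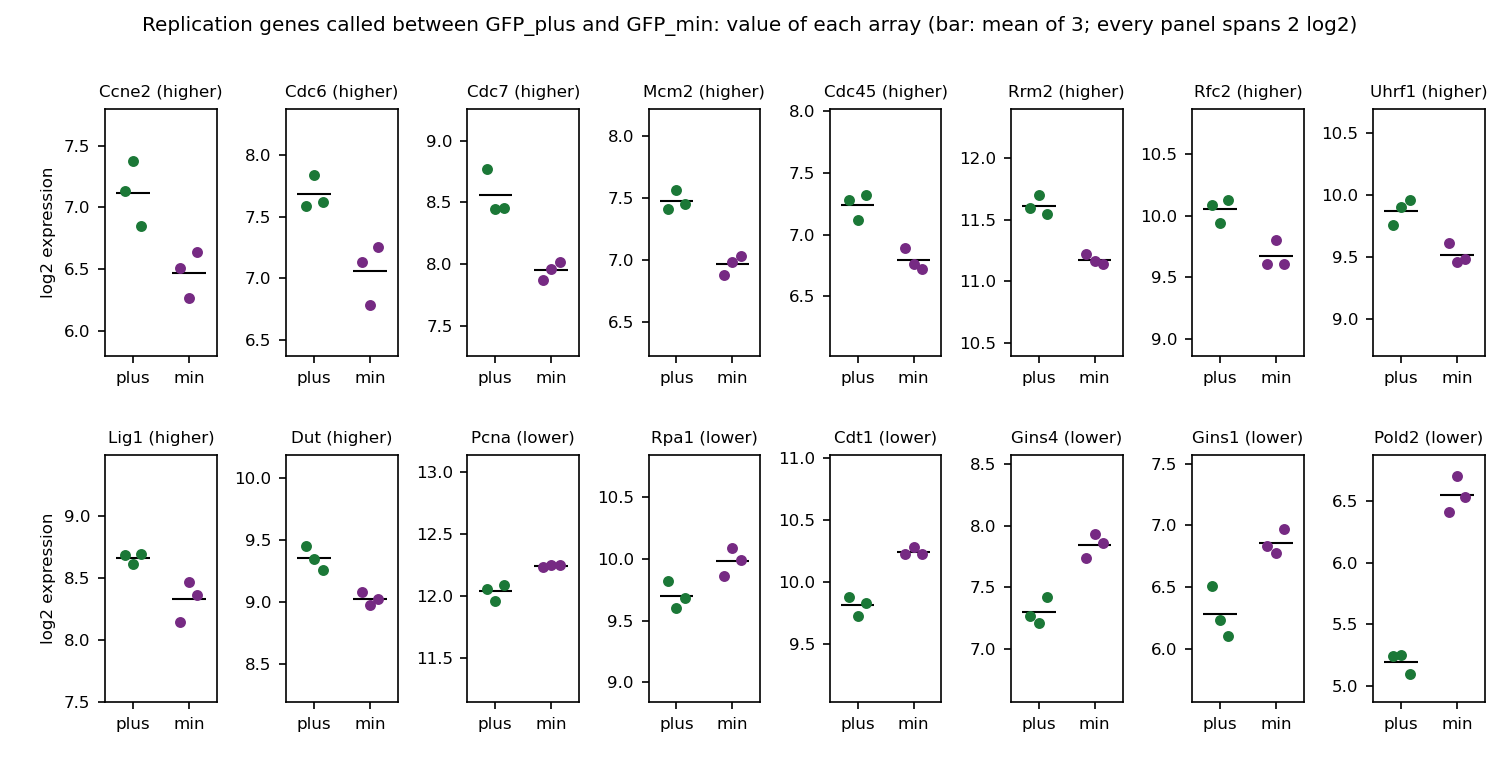
Deposited log2 level of each called member on every array, with 3 GFP_plus points left of 3 GFP_min points and a bar at each group mean. The groups do not overlap for any of the 16 genes, and the gap is widest for Pold2. These genes were picked by their calls on the same arrays, so the lack of overlap is no further support.

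The gap between genes of the same step does not depend on how the arrays are centred, since a shift of a whole array cancels in it. The following gaps were chosen after their values were seen and are given without a test. Each level was first taken as a log2 difference from the GFP_min mean of its own gene, so the GFP_min gaps average 0. Cdc6 minus Cdt1 was 0.89, 1.30 and 0.97 in GFP_plus, against 0.10, −0.31 and 0.21 in GFP_min. Cdc45 minus Gins4 was 1.06, 0.96 and 0.95 in GFP_plus, against 0.21, −0.12 and −0.08 in GFP_min. Pold1 minus Pold2 was 1.57 and Rfc2 minus Pcna 0.59 higher in GFP_plus on average. In all 4 gaps the GFP_plus arrays lay above the GFP_min arrays. That had to be so, since the first gene of each pair lay above GFP_min on all arrays and the second below.

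The 46 tested genes had 89 tested probe sets. Of 32 genes with more than 1, 22 had the same call on all of them, none had opposite calls, and 10 had called and uncalled probe sets side by side. Cdt1, Mcm2, Cdc45 and Rrm2 were called on all of theirs, and the rest of the 22 on none. Of the members called on their brightest probe set, Gins1, Cdc7, Rfc2, Rpa1, Dut and Uhrf1 had another that was not called. Taking the mean of the probe sets of each gene gave 11 members higher and 7 lower, and the share of all genes in that fit is not given here.

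The counts of calls depended on the scale of the arrays. Quantile normalization gave 10 members higher and 6 lower, where 25.03% of all genes were higher and 24.8% lower. Centring on the median of the tested probe sets, which moved every difference up by 0.20, gave 18 higher and 4 lower, where 41.4% of all genes were higher and 19.3% lower. Centring on 42 ribosomal protein genes moved them up by 0.53 and gave 35 higher and 1 lower, where 68.3% of all genes were higher and 11.3% lower. Centring on 27 bacterial poly-A control probe sets moved them down by 0.36 and gave 0 higher and 22 lower, where 4.63% of all genes were higher and 51.7% lower. This shift averages bright and dim controls, and the TrpnX controls lay under the array median on every array. The count of 0 came from limma at an adjusted p under 0.05, and 0 members were higher on that scale at an unadjusted p under 0.05 either. Each of these 3 centrings moves all genes by the same amount. The median of the members therefore had to stay 0.019 above that of all genes, as on the deposited scale. Under quantile normalization the median of the members was 0.056 above. Pold2 alone had the same call, lower, on all 5 scales, with −1.15 under quantile normalization, −0.82 with ribosomal and −1.71 with poly-A centring.

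**Figure D5:**
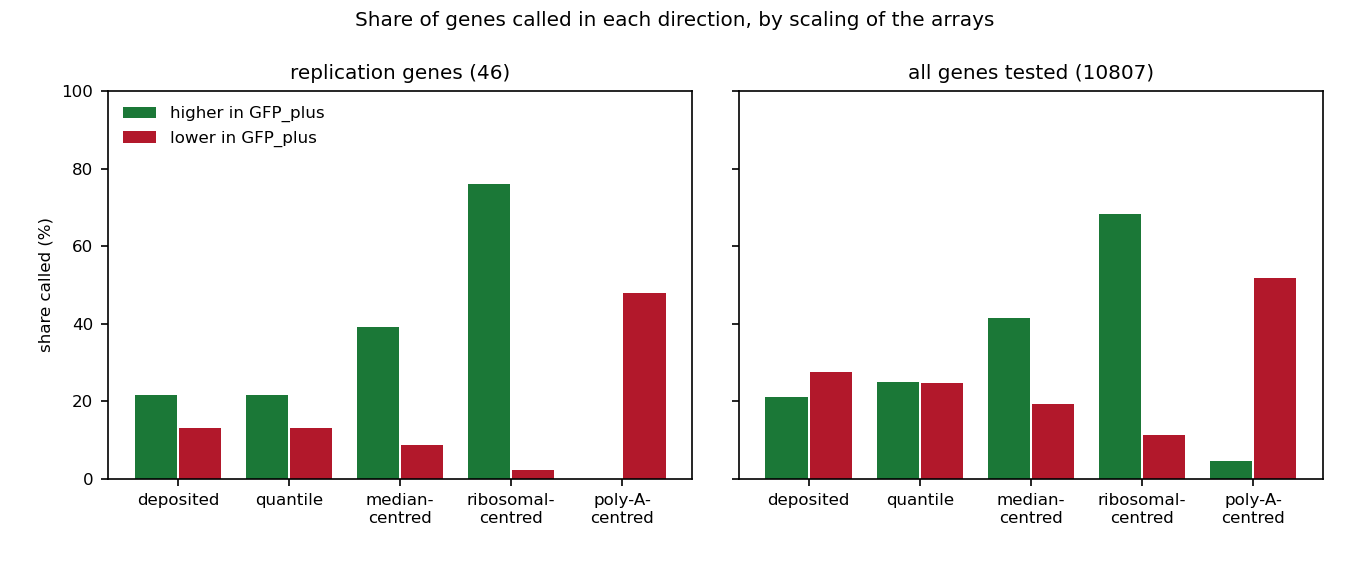
Share of genes (percent) called higher and lower in GFP_plus on the deposited scale and on 4 other scales of the arrays, for the 46 replication genes and for all 10807 genes tested. Both panels shift with the scale: the members run from 35 higher and 1 lower with ribosomal centring to 0 higher and 22 lower with poly-A centring.

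Other genes of the replication pathway, 52 tested of 56 listed, had 13 higher (25%, against 21.0% of all genes), 11 lower (21.2%, against 27.6% of all genes) and 28 not called, with a median difference of 0.059. Dna2, a nuclease and helicase that processes long Okazaki flaps, fell most, with 9.20, 9.29 and 8.72 in GFP_plus, against 10.58, 10.46 and 10.62 in GFP_min (difference −1.48, adjusted p = 1.60e-05). Pold4, a further subunit of polymerase delta, had 7.36, 6.94 and 7.36 in GFP_plus, against 8.10, 8.36 and 8.23 in GFP_min and fell by 1.01 (adjusted p = 0.000249), whereas Pold3 differed by −0.13 without a call. So 2 of the 4 polymerase delta subunits fell, and the catalytic subunit Pold1 was not among them. Cdk2, the partner kinase of cyclin E, rose by 0.68 (adjusted p = 0.000135), and Tfdp1, the DNA-binding partner of E2F factors, rose by 0.39 (adjusted p = 0.000101). Centring on the median, on ribosomal protein genes and on poly-A controls gave 26, 41 and 1 of these genes higher and 4, 2 and 26 lower. Of all genes 41.4%, 68.3% and 4.63% were higher and 19.3%, 11.3% and 51.7% lower on these scales.

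Some further genes of that list are named after their values were seen. Dtymk and Dck, kinases that feed the dTTP and deoxynucleotide pools, rose by 0.45 and 0.59. E2f2, E2f3 and E2f7 rose by 0.24, 0.43 and 0.37. The polymerase epsilon subunits Pole3 and Pole4 fell by 0.51 and 0.36, and the origin subunits Orc4 and Orc5 fell by 0.38 and 0.65. Rnaseh2a and Rnaseh2b, subunits of the nuclease that removes ribonucleotides from DNA, fell by 0.93 and 0.48, while the third subunit, Rnaseh2c, differed by 0.12, with all GFP_plus arrays above all GFP_min arrays and no call. Falls under 0.53 in size turn positive with ribosomal centring and rises under 0.36 turn negative with poly-A centring.

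Mitosis genes, which follow replication in the cycle, gave 5 higher (21.7%, against 21.0% of all genes), 2 lower (8.70%, against 27.6% of all genes) and 16 not called among 23 tested, with a median difference of 0.13. Tpx2, a spindle assembly factor, rose by 0.47, Cdk1 by 0.30 and Cdca8 by 0.26, while Bub1b and Ccnb2 fell by 0.60 and 0.36. Mki67, the usual mark of dividing cells, averaged 11.57 in GFP_plus and 11.56 in GFP_min (difference 0.010, SE 0.05, adjusted p = 0.885). Centring on the median gave 16 mitosis genes higher, where 41.4% of all genes were higher. Centring on ribosomal protein genes gave 22 higher, where 68.3% of all genes were higher. Centring on poly-A controls gave 8 lower, where 51.7% of all genes were lower. The mitosis counts in the other direction on these scales, and those under quantile normalization, are not given here. Whether mitosis and replication genes differed from each other was not tested.

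The sorted groups also differed in the RNA levels of cell type markers, while the cells themselves were not counted. For the counts that follow, 21.0% of all genes tested were called higher and 27.6% lower. All 11 tested monocyte markers were lower in GFP_plus, with a mean level of 7.04 to 7.13 in GFP_plus arrays, against 11.75 to 11.81 in GFP_min arrays. Early granule stage neutrophil markers (6 of 6 higher) had means of 10.93 to 11.14 in GFP_plus, against 9.52 to 9.67 in GFP_min. Late neutrophil markers (6 of 6 higher) had 12.83 to 12.85 in GFP_plus, against 12.37 to 12.41 in GFP_min. Their rises were smaller, from 0.19 to 0.71 on the deposited scale. Those of Mmp8 (0.19), Ccl6 (0.19) and Mmp9 (0.30) turn negative with poly-A centring, which moves every difference down by 0.36. The 5 tested basophil and mast cell markers stood at 4.68 to 4.76 in GFP_plus, against 2.64 to 2.68 in GFP_min. Of these, Cpa3 and Fcer1a passed the filter only through the GFP_plus arrays and so had to differ, while Mcpt8 (4.21), Ms4a2 (1.74) and Gata2 (0.68) were called higher. The 2 tested erythroid markers, Car1 and Car2, were dim, at 3.39 to 3.55 in GFP_plus, against 2.94 to 3.03 in GFP_min, and Car1 too passed only through the GFP_plus arrays. Gata1, Klf1, Epor, Hba-a1 and Ermap were below the filter. B cell precursor markers had 1 higher and 1 lower of 7, and stem and progenitor markers had Kit (1.47) and Myb (0.79) higher and Flt3 (−3.67) lower of 4. The part of these cell types in the replication values was not tested.

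Hdc, on whose reporter the cells were sorted, averaged 12.01 in GFP_plus and 11.19 in GFP_min, and Itgam, which encodes CD11b, averaged 11.84 in GFP_plus and 11.58 in GFP_min (adjusted p = 0.0745). The gap between the 3' and 5' probe sets of Gapdh, a sign of RNA integrity, was 0.64 in GFP_plus and 0.31 in GFP_min, and that of actin was 0.87 in GFP_plus and 0.81 in GFP_min. Its part in the values of the members was not tested. Correlations over all probe sets were 0.995 to 0.997 within a group and 0.961 to 0.967 between the groups.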

How the data were processed

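Total RNA of sorted marrow cells was labelled with an Affymetrix 3' kit, per the labels' protocols, and read on 6 arrays. The authors deposited 1 table of log2 values for 45101 probe sets. The submitters' processing notes name GCRMA; no version or setting is given in the sources used here. The log2 scale was inferred from the range of the deposited values, which were used as deposited. Symbols came from GEO's platform annotation: 34945 probe sets had 1 symbol and 932 several, which were then not assigned.

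Controls (64 probe sets) were set aside, and the 22956 probe sets above the median of their own array on at least 3 of 6 arrays were fitted with limma 3.58.1 (lmFit, then eBayes with an intensity trend) in R 4.3.3, on all 6 arrays, with Benjamini-Hochberg adjustment over all of them and a threshold of 0.05. The fit was tested on simulated data. All members are named. Values on every array are given for the 3 members of smallest adjusted p in each role and for called members, and of other lists for up to 4 genes and 2 called the other way, except where stated and for Mki67, named as a common mark of division. The genes and lists were chosen with earlier results of these data known. The labels do not say that a replicate letter marks a shared mouse or day, so the main fit had no pairing. Deviations of same-letter arrays correlated at −0.18, −0.30 and −0.22, which cannot show whether the letters pair the arrays. Promoters were searched with Python 3.11.15 in RefSeq's GRCm38.p6 table. Alternatives covered filters, scaling, variance model, array weights, probe set choice, the block and left-out arrays.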

Additional observations from a re-analysis of the deposited data

How the results depend on the processing

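The counts of replication genes held within 1.5 times their value, at 10 to 12 higher and 4 to 7 lower, under no filter, a filter on all 6 arrays, quantile normalization, no variance trend, array weights, the mean of probe sets and probe sets chosen without an ambiguous suffix, the last added after seeing the data. Fits without each array in turn gave 9 to 11 higher, 5 to 6 lower and medians of −0.0102 to 0.0325. With the replicate letter as a replicate block, 9 were higher and 5 lower, and Rpa1 (adjusted p = 0.0849) and Lig1 (adjusted p = 0.0678) lost their calls. Shares of all genes called under the filters, variance model, array weights, probe set choices, left-out arrays and block are not given here. Centring on the median, on ribosomal protein genes and on poly-A controls gave 18, 35 and 0 higher, 4, 1 and 22 lower, and medians of 0.224, 0.552 and −0.337. Quantile normalization gave a median of 0.105. Asking for at least 1 log2 left 0 higher and 1 lower. With ribosomal centring 19 signs turned, 7 of them of genes called on neither scale. The others were Cdt1 (0.10), Gmnn (0.39), Mcm3 (0.52), Mcm5 (0.50), Mcm6 (0.36), Mcm10 (0.48), Pole2 (0.39), Prim1 (0.46), Pcna (0.32), Rfc5 (0.41), Rpa1 (0.25) and Fen1 (0.32). With poly-A centring 16 signs turned, 13 of genes called on neither scale, and the others were Mcm7 (−0.31), Lig1 (−0.0202) and Dut (−0.03). Median centring turned 8 and quantile normalization 3, all of genes called on neither scale. A constant shift of 0.20, 0.53 or −0.36 makes these moves by construction; which scale is right was not tested. Pcna (−0.0066) and Rpa1 (−0.079) lost their calls with median centring, and Pcna and Rpa1 without a variance trend. Gins1 and Dut lost theirs with the mean of probe sets, where Orc2, Mcm4, Fen1 and Rrm1 gained one. Orc1 and genes near the array median, such as Chaf1b, are limited by signal.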
